A study of Drosophila melanogaster with 24 samples.

Results

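The chemoreceptor genes of Drosophila melanogaster heads are described here across 2 ages. All genes whose symbol opens with Or, Ir or Gr followed by a number were taken, together with Orco. This gave 185 of the 17402 genes analysed. They were 61 odorant receptor genes (Or, including Orco and the pseudogene Or98P), 66 ionotropic receptor genes (Ir) and 58 gustatory receptor genes (Gr). The Ir genes include Ir47b, Ir48a, Ir51a, Ir56e, Ir60c and Ir60f, which are annotated as pseudogenes. RNA came from pooled heads of w[1118] females kept in a 12 h light and 12 h dark cycle and collected at the age of 5 d (young) or 55 d (old). At each age 6 times of day were sampled, given as zeitgeber time (ZT, hours after lights on), in 2 biological replicates, so that 12 young and 12 old libraries were compared. All flies carried the white allele, and no group differed in genotype or treatment.

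Odorant receptors are channels of olfactory neurons in the antenna and the maxillary palp, where one tuning receptor pairs with the shared co-receptor Orco. Ionotropic receptors descend from glutamate receptors, and their tuning subunits need a co-receptor such as Ir8a, Ir25a, Ir76b or Ir93a to detect acids, amines, humidity, temperature or tastants. Gustatory receptors sense sugars, bitter compounds, contact pheromones and carbon dioxide, chiefly in the taste hairs of proboscis and legs.

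Levels are given as FPKM, the fragment number divided by transcript length and library size, so that genes of different length can be compared, after each library was scaled by the median ratio over 9159 expressed genes. Where the unscaled values are meant they are called deposited. The heads carried their eyes, with ninaE, the major rhodopsin of the outer photoreceptors, at 11700 FPKM in young and 10550 in old flies. Genes of antennal support cells were far lower: the odorant binding protein gene lush averaged 3.86 and 3.02 FPKM and Obp83a 0.493 and 0.171. The highest on the list, Obp69a, averaged 12.2 and 11.9 FPKM. Obp59a was listed at 0 in 11 of the 12 young and all 12 old libraries. The summed level of 7 such genes ranged from 8.56 to 50.2 FPKM in young libraries (median 17.98) and from 7.89 to 26.8 in old (median 17.1). Obp83b exceeded 2 FPKM in 3 young libraries and 1 old library.

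Most chemoreceptor genes were at trace level. In the deposited values 159 of the 185 genes stayed below 1 FPKM in every one of the 24 libraries, which is 85.95% against 38.1% of all genes. The share was 88.5% of Or, 87.9% of Ir and 81.0% of Gr genes. The genes that reached 1 FPKM in at least 1 library were Or1a, Or13a, Or43b, Or45a, Or46a, Or63a and Or67d among the odorant receptors. Among the ionotropic receptors they were Ir25a, Ir41a, Ir51b, Ir62a, Ir68a, Ir76a, Ir76b and Ir100a. Among the gustatory receptors they were Gr2a, Gr28b, Gr33a, Gr39a, Gr58c, Gr59c, Gr61a, Gr63a, Gr64c, Gr66a and Gr94a. Every other member, Orco included, stayed below 1 FPKM throughout, and on the scaled values only Orco and Gr64d joined those that reached it. Or30a, Or59a, Or83a, Or98P, Ir7e and Ir56e were listed at 0 in all 24 libraries, and 50 genes were above 0 in all of them. The exons of Or83a lie wholly opposite those of CG1172, a gene at 13.5 FPKM.

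The families differed in level and in how few genes carried it. The median gene stood at 0.153 FPKM in young flies for Gr, 0.0588 for Or and 0.0378 for Ir, against 1.91 over all genes. A mean of at least 1 FPKM at either age was reached by 5 Or, 8 Ir and 5 Gr genes. Ir76a alone, an amine receptor subunit of the antenna, made up 43.7% of the summed Ir level in young flies and 46.8% in old. Gr39a, whose products take part in contact pheromone sensing, gave 36.03% and 37.6% of the Gr sum, while Or63a, known from the larval nose, gave 29.7% and 24.8% of the Or sum. In a library between 30 and 43 Or genes, 33 and 44 Ir genes and 37 and 47 Gr genes were above 0.

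**Figure D1:**
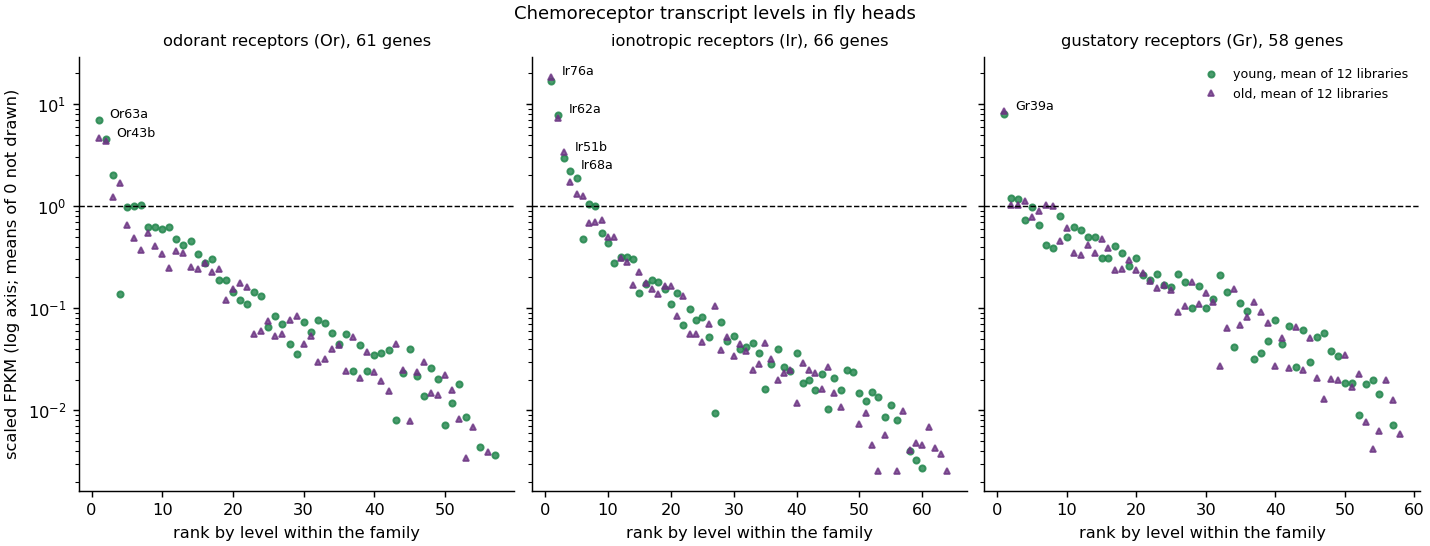
Mean scaled FPKM of each chemoreceptor gene (log axis), ranked within its family, in young flies (circles) and old flies (triangles), with 12 libraries at each age. The dashed line marks 1 FPKM, which 5 Or, 8 Ir and 5 Gr genes reached at either age.

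Several of the genes at the top gave no call with age after scaling, though Ir76a, Gr39a and Ir51b were called higher in old flies on the deposited values (log2 changes of 0.34, 0.31 and 0.39, adjusted P = 4.5e-04, 0.0024 and 4.0e-04). Ir76a ranged from 14.2 to 20.4 FPKM in young libraries (median 16.9) and from 15.7 to 21.8 in old (median 18.2). Gr39a ranged from 6.38 to 9.58 (median 7.85) and from 7.11 to 10.7 (median 8.23). Both genes overlapped broadly between the ages, and limma, a linear model fitted over all genes, gave log2 changes of 0.12 ± 0.07 and 0.09 ± 0.08 (SE, adjusted P = 0.145 and 0.366). Ir62a, a subunit used in calcium taste, averaged 7.83 ± 1.01 FPKM in young and 7.25 ± 1.39 in old flies (SD, n = 12), and Or43b, a receptor of antennal neurons, 4.54 ± 0.55 and 4.37 ± 0.62; neither passed the test. Ir51b stood at 2.96 and 3.36 FPKM and Ir68a, the subunit for moist air, at 2.19 and 1.73 (adjusted P = 0.0688 and 0.0130, above the threshold of 0.01). Gr33a, a broadly used bitter receptor, averaged 1.21 and 1.02 FPKM and Gr28b, known for warmth and light sensing, 1.18 and 1.03, without a call.

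Several of these genes lie across other expressed genes. Of the 18 genes with a mean of at least 1 FPKM at an age, 8 (44.4%) overlapped the span of a gene that itself averaged 1 FPKM or more, against 27 of the other 167 members (16.2%). Gr39a lies within the span of Mondo on the opposite strand (42.6 FPKM in young flies), Ir62a within Iml1 on the same strand (20.2 FPKM), and 40.7% of the exon bases of Or43b are shared with Cul1 on the opposite strand (60.2 FPKM). Ir76a shares 14.1% of its exon bases with CG14102 on the opposite strand, a gene that averaged 5.61 FPKM over the 24 libraries. The part of such neighbours in the measured levels was not tested.

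To ask what changed with age independent of time of day, all 12349 genes with a mean of at least 0.1 FPKM were tested at an adjusted P value of 0.01. Only 76 of the 185 chemoreceptor genes could enter: 22 Or, 21 Ir and 33 Gr. Of these 20 (26.3%) were called, beside 35.2% of all tested genes, 15 lower in old flies and 5 higher. An unadjusted P value of 0.05 or less was found for 30 members (39.5%), beside 51.5% of all genes. The share of 19.7% lower stands beside 17.9% of all tested genes, and the share of 6.58% higher beside 17.3%. By family, 8 of 22 Or genes were lower and 1 higher, 4 of 21 Ir genes lower and 2 higher, and 3 of 33 Gr genes lower and 2 higher. The median log2 change was −0.36 for Or, −0.02 for Ir and −0.17 for Gr genes, against 0.03 over all tested genes.

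The balance of directions depended on the scale. On the deposited values, where the median of all genes rose by 0.24 on the log2 scale, 6 members were lower and 12 higher, beside 9.52% and 36.2% of all genes. The family medians were then −0.23 for Or, 0.13 for Ir and 0.03 for Gr. Of the 20 called genes, 11 were called in the same direction on both scales: Orco, Or13a, Or63a, Or67d, Gr64e and Gr98d lower, and Or46a, Ir41a, Ir60a, Gr61a and Gr94a higher. The 9 others, all lower after scaling, kept a negative log2 change on the deposited values without passing.

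**Figure D2:**
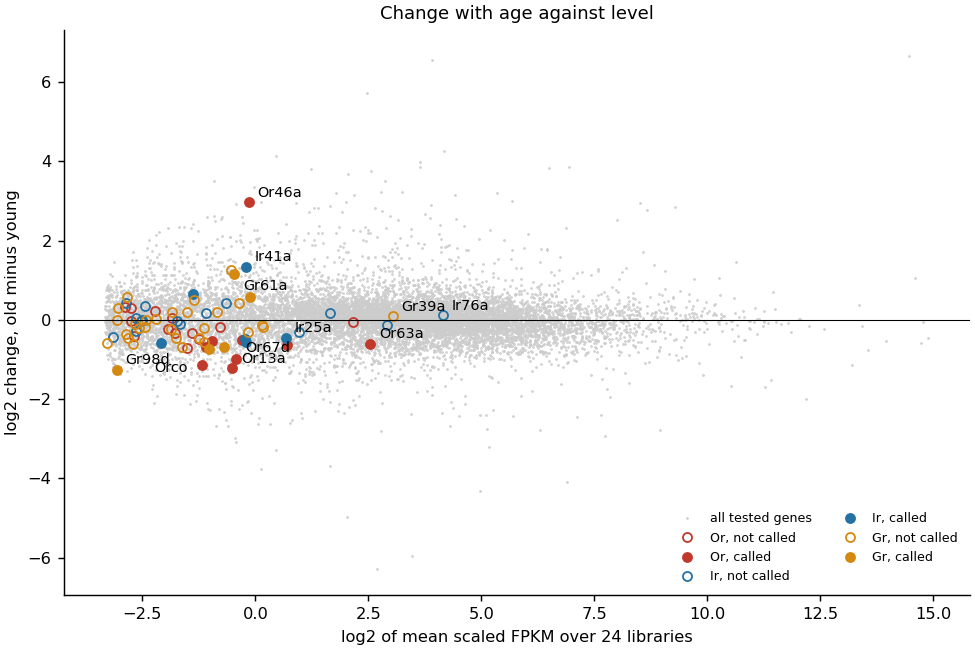
Log2 change from young to old against the log2 of the mean scaled FPKM over 24 libraries, for all 12349 tested genes (grey) and the tested Or, Ir and Gr genes (filled where called at an adjusted P value of 0.01). Most members lie at the left, and Or46a stands highest among them.

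Orco, the obligate partner of the tuning odorant receptors (chromosome 3R, 5407183 to 5412406, minus strand), fell with age. It ranged from 0.227 to 1.11 FPKM in young libraries (median 0.626) and from 0.0261 to 0.529 in old (median 0.246). All 12 old libraries lay below the young median and 3 below the lowest young library, so the groups overlapped. The log2 change was −1.14 ± 0.25 (adjusted P = 4.5e-04) and stayed between −1.24 and −1.02 when any 1 library was left out. The call of Orco was lost without replicate 1 and without replicate 2, where 5 and 7 of the 20 calls remained. In whole heads, fewer cells of a type and less RNA per cell cannot be told apart.

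Tuning receptors of adult antennal neurons fell or gave no call. Or13a, a receptor for mushroom alcohol (chromosome X, 15974425 to 15976706, plus strand), ranged from 0.4504 to 1.66 FPKM in young libraries (median 1.06) and from 0.193 to 0.559 in old (median 0.382). In 10 of the 12 old libraries the level lay below that of every young one, and the log2 change was −1.22 ± 0.16 (adjusted P = 5.7e-07). For this gene the FPKM steps allow whole fragments to be counted, 236 in the young and 98 in the old libraries together. Or67d, the receptor for the male pheromone cis-vaccenyl acetate, ranged from 0.529 to 1.53 FPKM (median 0.9203) in young and from 0.184 to 1.09 (median 0.406) in old libraries. Below all young libraries lay 8 old ones, while 1 exceeded the young median (log2 change −0.99 ± 0.22, adjusted P = 5.1e-04).

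Or22a and Or22b, adjacent receptors for fruit esters that share a neuron type, moved in the same direction. Or22a averaged 0.59 ± 0.17 FPKM in young and 0.34 ± 0.15 in old flies (log2 change −0.69 ± 0.18, adjusted P = 0.0026), Or22b 0.627 ± 0.124 and 0.404 ± 0.078 (−0.52 ± 0.11, adjusted P = 4.2e-04). They lie 541 bases apart on one strand and similar copies can share fragments, so they may not be independent. In total 4 of the 12 tested genes on a list of adult antennal receptors were lower and none higher, out of 38 listed. Among all tested genes 17.9% were called lower and 17.3% higher.

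Receptors known mainly from larvae were also detected in these adult heads. Or63a ranged from 5.52 to 8.21 FPKM in young (median 7.22) and from 3.69 to 6.22 in old libraries (median 4.63), with 11 old libraries below every young one. The log2 change of −0.60 ± 0.08 (adjusted P = 1.6e-06) was the most precise among the genes that fell. Or1a averaged 2.02 ± 0.80 and 1.23 ± 0.32 FPKM (log2 change −0.63 ± 0.19, adjusted P = 0.0088), and Or45a 0.980 ± 0.208 and 0.657 ± 0.156 (−0.51 ± 0.13, adjusted P = 0.0021). Or1a passed in only 9 of the 24 fits that left out 1 library, where its adjusted P value ran from 0.0031 to 0.0179. Or63a, Or1a and Or45a were the 3 of 6 tested larval receptors that fell, beside 17.9% of all tested genes called lower. Of the 13 listed, Or30a, Or59a and Or83a were listed at 0.

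Or46a went the other way and by more than any other tested member. This receptor of maxillary palp neurons tuned to phenols (chromosome 2R, 10139264 to 10142074, plus strand) ranged from 0.0003 to 0.473 FPKM in young libraries (median 0.123) and from 0.585 to 2.79 in old (median 1.77). Every old library lay above every young one. Among the 76 tested members it was the only gene whose groups did not overlap, beside 3.9% of all tested genes that did not overlap with old higher and 5.79% with old lower. The log2 change was 2.96 ± 0.27 (adjusted P = 1.4e-09), 7.79-fold on the scale of log2(FPKM + 0.1). A gene 264 bases away on the strand of Or46a, CG18011, stood at 2.93 FPKM in young and 3.49 in old flies. It was called higher in old flies (log2 change 0.25 ± 0.07, adjusted P = 0.0044). All exon bases of Or46a also lie within an antisense RNA gene, CR43467, which stood at 0.157 FPKM in young and 0.196 in old flies (log2 change 0.43, adjusted P = 0.245). Whether strand was used in counting is not given in the sources used here. The other palp receptors did not share the rise: Or71a stood at 0.279 and 0.278 FPKM, Or59c at 0.338 and 0.244, and 4 more of the 7 listed were too low to test.

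**Figure D3:**
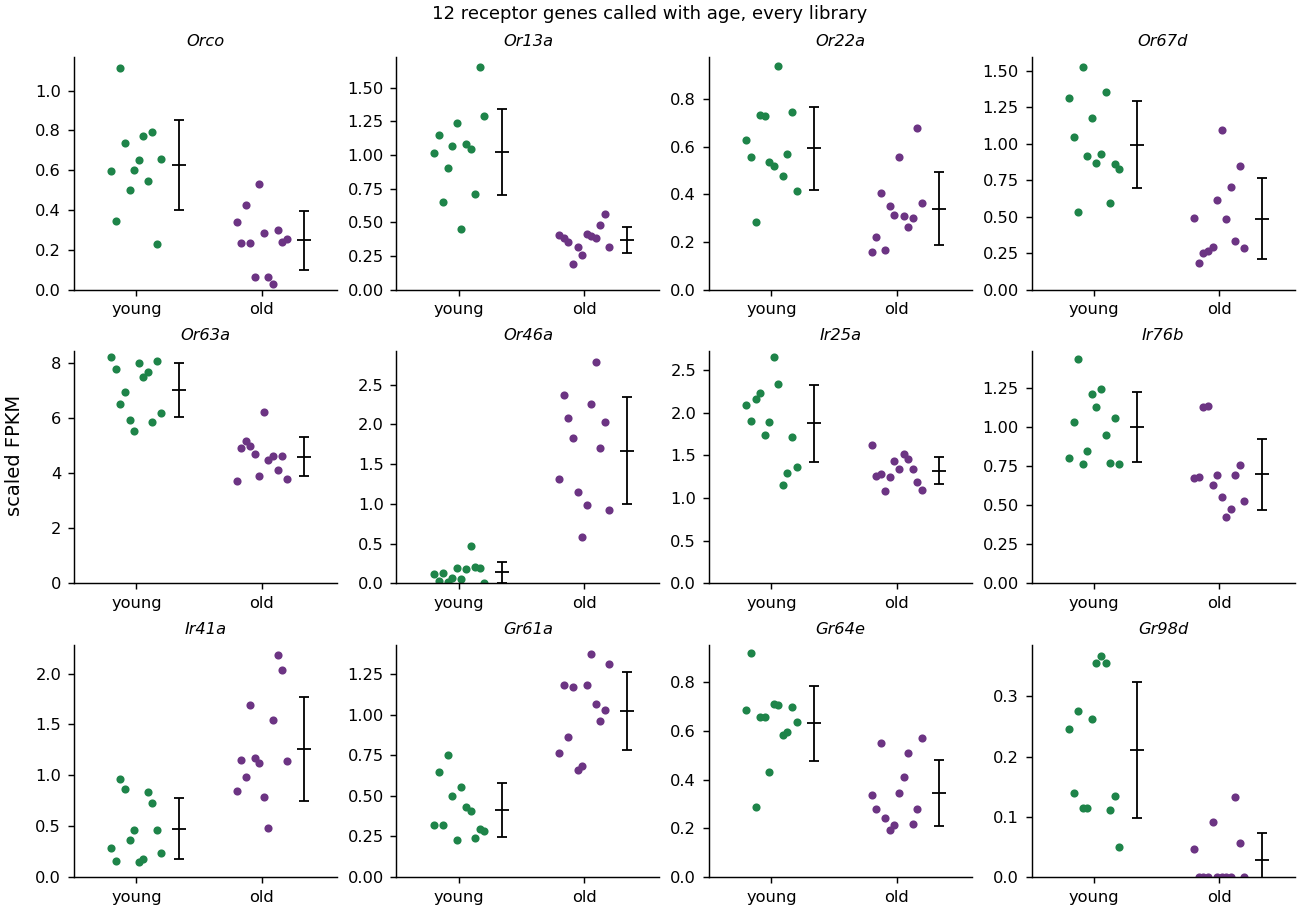
Scaled FPKM of 12 called genes in each of the 12 young and 12 old libraries (dots), with the mean and SD beside them. Or46a is separated completely between the ages, while Orco, Or13a, Or22a, Or67d, Or63a, Ir25a, Ir76b, Gr64e and Gr98d are lower and Ir41a and Gr61a higher in old flies with overlap.

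Of the 3 ionotropic co-receptors tested, Ir25a and Ir76b fell, beside 17.9% of all tested genes called lower. Ir25a ranged from 1.16 to 2.65 FPKM in young (median 1.89) and from 1.08 to 1.61 in old libraries (median 1.31), all old libraries lying below the young median. Its log2 change was −0.45 ± 0.11 (adjusted P = 0.0019). Ir76b, which works with Ir25a in amine, salt and amino acid sensing, averaged 1.00 ± 0.22 and 0.699 ± 0.227 FPKM (−0.49 ± 0.14, adjusted P = 0.0061). The call of Ir76b held in 16 of the 24 fits that left out 1 library. Neither passed on the deposited values (−0.24 and −0.29, adjusted P = 0.103 and 0.0842). Ir93a, the co-receptor of temperature and humidity sensing, stood at 0.173 ± 0.068 and 0.175 ± 0.078 FPKM. Ir8a, the co-receptor of acid-sensing antennal neurons, was nearly absent, with 9 whole fragments over the young and 3 over the old libraries.

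Among the tuning subunits Ir41a rose. This polyamine receptor subunit of the antenna (chromosome 2R, 4917519 to 5021955, plus strand) ranged from 0.148 to 0.962 FPKM in young libraries (median 0.408) and from 0.482 to 2.18 in old (median 1.14). The level of 9 old libraries exceeded every young one and that of all 12 exceeded the young median. The log2 change was 1.34 ± 0.27 (adjusted P = 1.7e-04), and whole fragments numbered 216 in young and 671 in old libraries. It was the only one of 5 tested antennal tuning subunits with a call, beside 35.2% of all tested genes called in either direction. The subunits for acids and odours Ir64a, Ir75a, Ir75b, Ir75c, Ir75d, Ir84a and Ir92a averaged at most 0.0696 FPKM at either age. Ir31a averaged 0.0687 FPKM in young and 0.131 in old flies, which left it just under the filter, and on the deposited values its adjusted P value was 0.0131. The temperature and dry-air subunits Ir21a and Ir40a stood at 0.316 and 0.142 FPKM in young and at 0.286 and 0.228 in old flies.

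The other called Ir genes have no tuning that is given here. Ir60a averaged 0.278 ± 0.110 FPKM in young and 0.494 ± 0.171 in old flies (log2 change 0.65 ± 0.18, adjusted P = 0.0049), a call that held in 23 of the 24 fits without 1 library and was lost without the first old replicate at ZT8. Ir100a averaged 1.05 ± 0.25 and 0.684 ± 0.170 FPKM (−0.55 ± 0.14, adjusted P = 0.0020). Ir47a averaged 0.302 ± 0.098 and 0.170 ± 0.068 FPKM (−0.58 ± 0.17, adjusted P = 0.0069), and passed in 14 of the 24 fits without 1 library.

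Sugar receptors moved in both directions. Gr61a, a glucose receptor, ranged from 0.228 to 0.749 FPKM in young libraries (median 0.363) and from 0.662 to 1.38 in old (median 1.05), with 10 old libraries above every young one. Its log2 change was 1.16 ± 0.16 (adjusted P = 1.5e-06). Gr64e, which serves glycerol and fatty acid taste, ranged from 0.286 to 0.918 (median 0.657) and from 0.192 to 0.569 (median 0.309), with 6 old libraries below every young one (−0.74 ± 0.16, adjusted P = 6.0e-04). Because 99.1% of the exon bases of Gr64e are shared with Gr64d, the split between them is uncertain; Gr64d averaged 0.582 and 0.333 FPKM (adjusted P = 0.107). Of the 8 sugar receptors measured, 7 were tested, and Gr43a, the fructose receptor also found in brain, Gr64a, Gr64c and Gr64f gave no call.

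Bitter and carbon dioxide receptors gave no call at this threshold. Gr66a, a marker of bitter neurons, averaged 0.501 and 0.612 FPKM (log2 change 0.19, adjusted P = 0.428) and Gr32a 0.493 and 0.346 (−0.45, adjusted P = 0.108). Of the pair that forms the carbon dioxide receptor, Gr63a averaged 0.651 and 0.904 FPKM (0.43 ± 0.15, adjusted P = 0.0247) while Gr21a was listed at 0 in 10 of 12 libraries at each age. On the deposited values Gr63a passed with a log2 change of 0.62 (adjusted P = 0.0019).

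The remaining called Gr genes are less studied. Gr98d ranged from 0.0487 to 0.367 FPKM in young libraries (median 0.193) and was listed at 0 in 8 of the 12 old libraries, the highest of which stood at 0.133. Its log2 change of −1.26 ± 0.22 (adjusted P = 3.5e-05) rests on 49 whole fragments in young and 7 in old libraries. Gr59c averaged 0.792 ± 0.232 and 0.452 ± 0.118 FPKM (−0.69 ± 0.15, adjusted P = 6.0e-04), and Gr94a 0.736 ± 0.227 and 1.12 ± 0.14 (0.58 ± 0.13, adjusted P = 6.4e-04), with all 12 old libraries above the young median of Gr94a. Below the filter on mean level, Ir60e (3 whole fragments in young and 40 in old libraries) and Gr39b (8 and 34) were called higher in old flies when no filter was used.

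**Figure D4:**
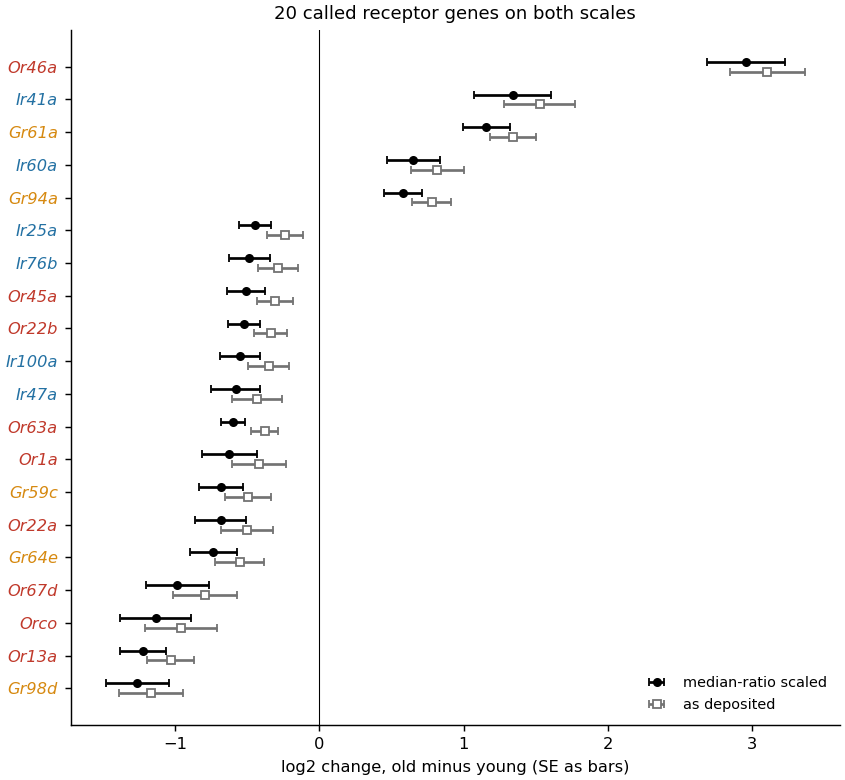
Log2 change from young to old with its SE for the 20 called genes, after median-ratio scaling (filled circles) and on the deposited values (open squares), with gene names coloured by family (Or red, Ir blue, Gr orange). All 20 keep their sign, and each gene lies further to the right on the deposited values.

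Genes beside some of the called members moved the same way. A tested gene lay within 1000 bases of, or overlapped, 16 of the 20 called genes, and 12 of the 25 such pairs were called in the same direction, beside 17.9% of all tested genes called lower and 17.3% called higher. Or22a and Or22b, each the neighbour of the other, make up 2 of these 12 pairs. On one strand with Or13a, CG42766 (162 bases away) fell from 3.09 to 1.17 FPKM (log2 change −1.37 ± 0.16, adjusted P = 1.3e-07), and the long noncoding RNA gene CR45527 (508 bases away) fell by 1.32 on the log2 scale. An antisense RNA gene, CR46089, 13 bases from Gr94a and on its strand, rose by 0.66 ± 0.11 (adjusted P = 3.4e-05), close to the 0.58 of Gr94a. Or45a lies within CG13739 and CG13954, on the opposite strand, which fell by 0.38 and 0.54 on the log2 scale. Or1a lies within CG3777 on its own strand, which gave no call (log2 change −0.56 ± 0.25, adjusted P = 0.0649). It lies 10 bases from CG32816 on the opposite strand, which was called lower (−0.70 ± 0.08, adjusted P = 4.2e-08). Ir47a lies within SLO2 on its own strand, a potassium channel gene that fell by 0.49. How far fragments of such neighbours enter the receptor values was not tested.

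Other markers moved with age in the same libraries. All 5 pan-neuronal genes on a marker list (elav, nSyb, brp, Syt1 and para) were lower in old flies, with log2 changes from −0.53 for elav to −1.09 for Syt1, and their summed level ranged from 1012 to 1498 FPKM in young and from 592 to 924 in old libraries. Of the 7 antennal support genes 6 were tested. Of these 1 fell, Obp28a, from 1.86 ± 0.99 to 0.744 ± 0.477 FPKM (log2 change −1.19 ± 0.31, adjusted P = 0.0027). The wide SEs of Obp83a, Obp83b and Obp84a (−0.47 ± 0.48, −0.75 ± 0.68 and −0.48 ± 0.59) left them without a call. Neither lush (−0.30) nor Obp69a (0.04) was called. The yolk protein genes Yp1, Yp2 and Yp3, expressed in fat body, were lower, with log2 changes from −1.15 to −1.69. Also lower were the muscle myosin gene Mhc (−0.63) and the photoreceptor genes chp and ninaC (−0.52 and −0.36). A gene of blood-brain barrier glia, moody, was higher (0.46). The others on these lists gave no call. Their log2 changes were −0.278 for Lsp2, −0.185 and 0.117 for up and bt of muscle, and −0.156 and −0.082 for ninaE and trp. In glia they were 0.088 for repo and −0.217 for Gs2. Of all tested genes 17.9% were called lower and 17.3% higher. On the deposited values nSyb, Obp28a, chp and ninaC did not pass (adjusted P = 0.0126, 0.0104, 0.0255 and 0.281), while repo and bt were called higher. The part of these markers in the changes of Orco and the other receptors was not tested. Without the 4 libraries in which Obp83b exceeded 2 FPKM, 13 of the 20 calls remained, among them Orco, Or13a, Or46a, Or63a, Or67d, Ir25a and Ir41a. The 7 lost were Or1a, Or22a, Or45a, Ir47a, Ir60a, Ir76b and Ir100a.

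Genes that work with the receptors were taken from a second list. Of 8 accessory genes, 5 fell: ATP8B, a lipid flippase needed for odorant receptor function (log2 change −0.32 ± 0.04), onecut (−0.45 ± 0.08), Rfx (−0.20 ± 0.05), and acj6 and pdm3, transcription factors that set receptor choice (−0.30 ± 0.07 and −0.25 ± 0.07), with adjusted P values from 3.0e-07 to 0.0049. Of all tested genes 17.9% were called lower and 17.3% higher after scaling. None of the 5 accessory genes that fell passed on the deposited values. Snmp1, a partner of Or67d in pheromone sensing, stood at 4.75 and 4.85 FPKM, and Eip93F and the ammonium transporter Amt gave no call. None of the 4 taste channel genes ppk23, ppk25, ppk28 and ppk29 passed, with log2 changes from −0.15 to 0.14.

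To ask which receptors cycled, a 24 h cosine and sine were fitted at each age and tested at an adjusted P value of 0.05. In young flies 2 of the 76 tested members passed, beside 6.45% of all tested genes, and in old flies 3 passed, beside 7.31%. By family these were 1 Or and 1 Ir gene in young, and 1 Or and 2 Gr genes in old flies. Before adjustment 6 members (7.89%) reached 0.05 in young and 10 (13.2%) in old flies, beside 24.3% and 26.1% of all genes.

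In young flies Or85c and Ir41a passed. Or85c, a receptor known from larvae, read 0.686 and 0.545 FPKM at ZT0 and 0.0615 and 0.120 at ZT12 in the 2 replicates, with a fitted peak at ZT23.6 and a log2 amplitude of 1.02 (adjusted P = 0.0077). In old flies it read 0.0980 and 0.1499 at ZT0, was highest on average at ZT20 and did not pass (adjusted P = 0.716). Ir41a read 0.962 and 0.836 FPKM at ZT8 and 0.158 and 0.178 at ZT4 in young flies (peak ZT11.6, log2 amplitude 0.87, adjusted P = 0.0494). At 55 d its highest values were 1.69 and 2.18 at ZT12 (peak ZT13.6, log2 amplitude 0.61, adjusted P = 0.0584), which missed the threshold. With time of day as a factor in place of the cosine and sine neither gene passed in young flies (adjusted P = 0.117 for Or85c and 0.0648 for Ir41a), and without a filter on low values Ir41a did not (0.0691).

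In old flies Gr58c, Gr2a and Or46a passed. Gr58c read 1.82 and 2.30 FPKM at ZT12 and 0.137 and 0.373 at ZT0 (peak ZT9.35, log2 amplitude 1.26, adjusted P = 0.0115). In young flies it was highest at ZT4, with 0.701 and 1.29 FPKM, and the fit did not pass (adjusted P = 0.180). CG9304, 276 bases from Gr58c on one strand, also passed in old flies (peak ZT11.5, adjusted P = 0.0324).

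Gr2a was highest at ZT4 at both ages, with 0.621 and 1.20 FPKM in young and 1.08 and 0.879 in old flies. In old flies it read 0.183 and 0.136 at ZT16, 0.242 and 0.172 at ZT20 and 0.109 and 0.223 at ZT0. It passed in old flies only (log2 amplitude 1.03, adjusted P = 0.0286). As 75.9% of its exon bases are shared on the same strand with futsch, a gene at 35.3 and 25.97 FPKM, its values are uncertain. Or46a in old flies read 2.08 and 2.79 FPKM at ZT8 and 0.585 and 0.9201 at ZT20 (peak ZT8.04, log2 amplitude 0.72, adjusted P = 0.0268). With time of day as a factor Gr58c and Gr2a passed and Or46a did not (adjusted P = 0.0646).

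**Figure D5:**
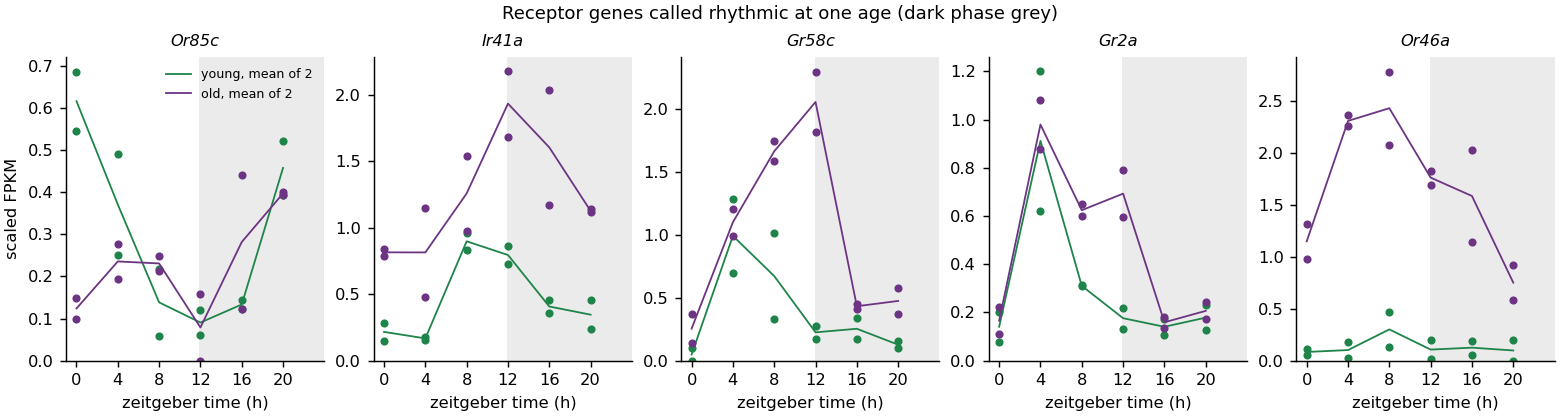
Scaled FPKM by zeitgeber time of the 5 genes that passed the rhythm test at one age, in young (green) and old (purple) flies, with both replicates as dots, their mean as a line and the dark phase in grey. Gr58c in old flies climbs to 1.82 and 2.30 FPKM at ZT12, and Or46a lies above its young values at every time of day.

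None of these differences in rhythm between the ages passed the test of the difference itself. In the interaction test of limma 0 of the 76 members were called, beside 0.17% of all tested genes, and 3 (Or82a, Gr68a and Gr98d) reached 0.05 before adjustment, beside 6.21% of all genes. For Or85c, with the largest drop in amplitude among the 5, the unadjusted P value was 0.0821 (adjusted P = 0.860). A gene that passed at one age and not at the other is therefore not shown to differ in rhythm. Without either replicate, 1 library was left at each time and no member passed at either age.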

How the data were processed

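The authors trimmed reads of stranded poly(A) libraries, aligned them with TopHat2 to BDGP6 (dm6), and deposited FPKM per gene and library, computed with Cuffdiff, in a young and an old table. The tables also hold the authors' own rhythm statistics (P and q values, phase, period, amplitude), which were not used. Columns are named by hour; hours 0 to 20 were read as replicate 1 and later hours as replicate 2, since the names carry no replicate number. Each table held 17637 genes, of which 235 hairpins were left out.

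How the libraries were normalised against each other is not given in the sources used here, and the 2 tables differ in scale: the median-ratio factors differed by 0.22 on the log2 scale between the ages. FPKM was therefore rescaled, with the deposited scale as an alternative. log2(FPKM + 0.1) of genes with a mean of at least 0.1 FPKM was tested with limma 3.58.1 (R 4.3.3; trend, Benjamini-Hochberg adjustment), for age over all 24 libraries and for a 24 h cosine and sine at each age. On this scale changes of low genes are understated. The read depth of each library is unknown, and no counting interval is given; 94.1% of the values of low genes fell within 0.1 of a whole multiple of 1 fragment, which gave whole fragments for 141 of the 179 members above 0. P values measure the spread between libraries, and SDs over 12 libraries include time of day. In simulated data for the age test, 162 of 200 genes changed by 1 on the log2 scale were recovered among 12349. The noise was independent, with the spread between replicates of a time of day, and the changed genes came from all tested genes. Recovery among genes as low as the receptors was not measured.

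The members and gene lists were chosen with earlier results of these data known. Text names co-receptors, members with a mean of at least 1 FPKM at an age and members past a test; other names complete listed groups. Positions and overlaps are from the Ensembl 115 annotation (dm6 coordinates), in which all 185 members matched by identifier. Alternatives were other scales, pseudocounts, filters, thresholds, time of day as a factor, a replicate block and leaving out replicates or libraries; leaving out the libraries with high Obp83b was chosen after seeing the data.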

Additional observations from a re-analysis of the deposited data

How the results depend on the processing

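Counts of members lower and higher with age were 15 and 5. They became 6 and 12 on the deposited values, and 3 and 0 when a mean of at least 1 FPKM was required, which left 11 members to test. When 1 library or 1 of the replicates was left out, lower calls ran from 3 to 16 and higher calls from 1 to 6; the low ends came from leaving out a whole replicate. Upper quartile scaling, pseudocounts of 1 and 0.01, no filter, a threshold of 0.05 and a factor for time of day gave counts of 13 to 19 lower and 5 to 7 higher. No called member changed sign. A replicate block gave 16 lower and 5 higher; differences between the replicates of young and old libraries correlated by −0.03 to 0.20 over the 6 times of day, above 0.1 at 2 of them, so the numbers were not taken to pair the libraries. Leaving out the 4 libraries with high Obp83b gave 9 lower and 4 higher.

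Rhythm calls were few and moved with the settings. The 2 of young flies became 4 on the deposited values and 0 when time of day was a factor. They became 1 without a filter and 1 with the replicate block, which dropped Ir41a (adjusted P = 0.0619). The 3 of old flies became 5 on the deposited values. With a mean of at least 1 FPKM required, 1 member passed in young and 1 in old flies. Neither was a main call, since Or85c, Ir41a, Gr58c, Gr2a and Or46a all average below 1 FPKM over the 24 libraries. Without either replicate both counts were 0. The interaction test called 0 members in every setting. The median log2 change of Gr genes moved from −0.172 to 0.032 on the deposited values. The cause of these shifts was not tested. Of the 109 members left out by the filter on low values, 6 were at 0 throughout, and of the others Ir60e and Gr39b were called when no filter was used. Few fragments per library limit what could be detected there.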
